A study of Mus musculus with 2 samples.

Results

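The genes described here are 6 mouse genes of arginine metabolism, taken by symbol from the 31053 genes of the count matrices. They are Slc7a2, Arg1, Arg2, Nos2, Ass1 and Odc1, a list drawn up with earlier results of these data known. The data are single-cell RNA-seq counts of subcutaneous syngeneic fibrosarcoma tumours, a transplanted connective tissue tumour, from WT C57BL/6 mice, with 1 library for each of 2 groups. The study compared tumours of mice given autologous erythrocytes with tumours of mice given saline. The labels contradict each other on which is which. The library titled Control carries the treatment label "Erythrocyte injected", and the library titled Blood carries "PBS injected". The libraries are therefore called by their titles, and no difference between them is read as an effect of erythrocytes or of saline. The age, sex and number of mice, the tumour line and any cell sort are unstated in the labels.

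Arginine enters macrophages through cationic amino acid transporters, and SLC7A2 is the transporter of this family known from activated macrophages. Inside the cell, arginase (cytosolic ARG1 or mitochondrial ARG2) cleaves arginine to urea and ornithine, which ornithine decarboxylase (ODC1) turns into the first polyamine, putrescine. Inducible nitric oxide synthase (NOS2) instead uses arginine to make nitric oxide and citrulline, and argininosuccinate synthase (ASS1) starts the return of citrulline to arginine. Arg1 is a customary marker of alternatively activated macrophages and of macrophages in tumours, and Nos2 of classically activated ones.

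On GRCm38, the build that mm10 names, GENCODE M21 lists all 6 as protein-coding. Slc7a2 lies on chromosome 8 at 40862396 to 40922308 on the plus strand, Arg1 on chromosome 10 at 24915221 to 24927484 on the minus strand and Arg2 on chromosome 12 at 79130777 to 79156301 on the plus strand. Nos2 lies on chromosome 11 at 78920787 to 78960254, Ass1 on chromosome 2 at 31470207 to 31520672 and Odc1 on chromosome 12 at 17544794 to 17551505, all on the plus strand. The 3' chemistry counts the end of each transcript by unique molecular identifiers (UMIs), and each value is the sum over these gene models.

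UMI totals were close, at 115272096 over 9475 barcodes titled Control and 115066023 over 12057 barcodes titled Blood. Filters on cells and the removal of called doublets left 8816 and 11342 cells. Both libraries held 349 barcodes in common. Of these, 339 were kept in both libraries, and the copy with more UMIs had a median of 51.4 times the UMIs of the other. These barcodes made up 84 of 102 and 47 of 54 mesenchymal-like cells, 37 of 66 and 34 of 53 osteoclast-like cells, but 106 of 5183 and 62 of 5398 macrophage-like cells. Clusters were named from marker genes, and the marker levels bear the main names out. In macrophage-like cells, the complement gene C1qa stood at 4728 and 4413 UMIs per 1000000 UMIs (CPM), against 627 and 392 CPM in all other cells. In neutrophil-like cells, S100a9 stood at 27723 and 24587 CPM, against 15.8 and 44.1 CPM elsewhere.

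Pairs of values below are given for the library titled Control first and the library titled Blood second. Ratios are titled Blood over titled Control. All intervals are exact 95% intervals from UMI or cell counts. They cover counting error only. With 1 library per group there is no replicate check, and cells of 1 library share their source, so no test between the groups was made. In the class sums, fewer cells of a state and less RNA per cell cannot be told apart.

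Macrophage-like cells carried most of the Slc7a2 RNA under every clustering run. Whether they carried most of the Nos2 RNA, or of the Arg1 RNA in the library titled Blood, depended on how clusters were named. They held 94.8% and 95.8% of the Slc7a2 UMIs of the kept cells, 89.95% and 90.9% of the Arg1 UMIs and 81.5% and 78.0% of the Nos2 UMIs. The Nos2-rich clusters lose the macrophage name under other settings. At Leiden resolution 2, a Cd36, Mmp12 and Hmox1 cluster with Nos2 among its 10 leading genes (872 cells) stayed unnamed, and a cluster led by Ly6i, Nos2 and Cxcl9 (657 cells) was monocyte-like. Macrophage-like cells then held 21.6% and 18.7% of the Nos2 UMIs. With a filter of 1000 UMIs and 10% mitochondrial UMIs, which left an Hmox1 cluster of 1202 cells unnamed, they held 33.0% and 23.6%, with doublets kept 29.2% and 18.7%, and with the libraries clustered separately 61.2% and 53.0%. Over all 5 other clusterings their part of the Slc7a2 UMIs ranged from 62.6% to 93.3% and of the Arg1 UMIs from 45.7% (titled Blood, doublets kept) to 91.2%. Their part of the Ass1 UMIs was 70.3% and 71.4%, and of the Odc1 UMIs 61.9% and 59.0%. Arg2 was split otherwise. Macrophage-like cells held 54.8% and 29.3% of its UMIs and neutrophil-like cells 14.7% and 54.7%. The neutrophil-like class itself had 129 and 1775 cells.

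**Figure D1:**
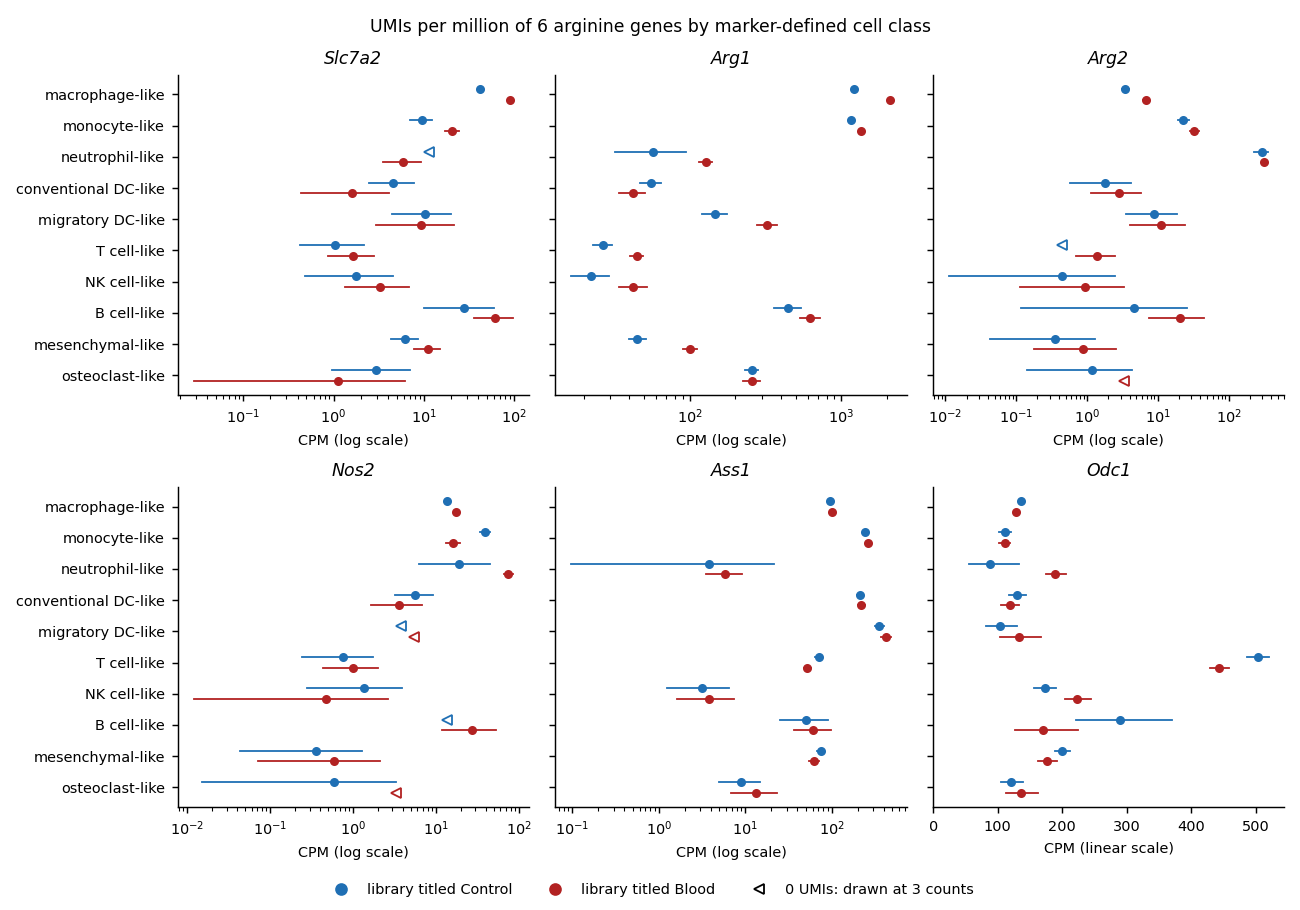
CPM of the 6 genes in each cell class, with a point per library and the exact 95% counting interval as a bar; the Odc1 axis is linear, the others logarithmic. Slc7a2 and Arg1 are highest in macrophage-like cells in the library titled Blood, Arg2 in neutrophil-like cells, Ass1 in migratory DC-like cells and Odc1 in T cell-like cells.

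Slc7a2, the transporter, was at 42.3 CPM (3437 UMIs) in macrophage-like cells titled Control and 89.0 CPM (7043 UMIs) in those titled Blood, a ratio of 2.11 (2.02 to 2.19). Monocyte-like cells came next among the large classes, with 9.49 and 20.7 CPM and a ratio of 2.18 (1.57 to 3.07), which was 1.24 at Leiden resolution 2 and 3.53 when the libraries were clustered separately. T cell-like cells held 7 and 13 Slc7a2 UMIs in all. Slc7a2 was thus a gene of the macrophage-like class in both libraries, at a level that was higher in the library titled Blood.

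Arg1 was at 1205 CPM (97952 UMIs) and 2103 CPM (166384 UMIs) in macrophage-like cells, a ratio of 1.75 (1.73 to 1.76). Monocyte-like cells held 1166 and 1340 Arg1 CPM, which gives 1.15 (1.11 to 1.19), and 2.75 when the libraries were clustered separately. As class sums, the 2 classes therefore stood at like levels in the library titled Control, and apart in the library titled Blood. The 2 monocyte-like clusters were unlike each other. Arg1 was at 1571 and 1813 CPM in cluster 5, led by Dmkn, Chil3 and Ccl24. In cluster 15, led by Hp and Ace, it was at 25.1 and 67.3 CPM. Arg1 and Slc7a2 were the 2 members at least 1.5-fold higher in macrophage-like cells titled Blood, among the 5 members that passed the filter of 10 CPM, and no member was 1.5-fold lower. Among all 7778 genes measured in this class, 0.476% were at least 1.5-fold higher and 0.849% at least 1.5-fold lower, and the median log2 ratio was 0.01.

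Arg1 UMIs were also found in lymphocyte classes, at about the proportion to C1q RNA that macrophage-like cells show. Per 100 UMIs of the 3 C1q chains, macrophage-like cells held 9.99 and 19.2 Arg1 UMIs. T cell-like cells held 10.2 and 23.0, and NK cell-like cells 10.4 and 18.1. The Arg1 level of T cell-like cells, 26.7 and 44.7 CPM, therefore came with C1q RNA at close to the macrophage proportion. Monocyte-like cells held 59.7 and 121 Arg1 UMIs per 100 C1q UMIs, well above that proportion. In B cell-like cells 3 cells held 97.9% of the 97 Arg1 UMIs titled Control, and 3 cells 92.9% of the 183 titled Blood.

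**Figure D2:**
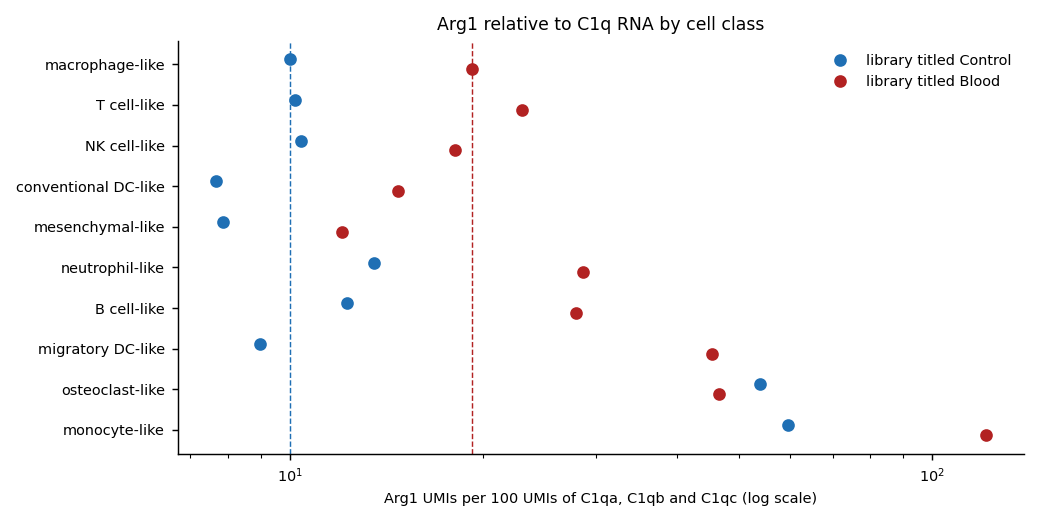
Arg1 UMIs per 100 UMIs of C1qa, C1qb and C1qc (log axis) by cell class and library; dashed lines mark the macrophage-like value of each library. T cell-like and NK cell-like cells lie near the line of their own library, and monocyte-like cells at 59.7 and 121 lie to its right.

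The mesenchymal-like and osteoclast-like classes need their Arg1 values read with their shared barcodes. In osteoclast-like cells Arg1 was at 256 and 257 CPM over all cells and at 372 CPM (252 UMIs) and 357 CPM (125 UMIs) without the shared barcodes. In mesenchymal-like cells it was at 45.3 and 100.2 CPM over all cells and at 16.8 CPM (5 UMIs) and 334 CPM (50 UMIs) in the 18 and 7 cells that were not shared. Macrophage-like ratios barely moved. Without shared barcodes they were 1.74 for Arg1, 2.10 for Slc7a2 and 1.25 for Nos2.

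Across the 7 macrophage-like clusters Arg1 was never low. It was highest in cluster 1, led by Mmp12, Cd36 and Hmox1, at 4121 and 4477 CPM, a ratio of 1.09 (1.07 to 1.10). Arg1 is among that cluster's own leading genes, so its level there is partly a matter of how cells were grouped. When cells were clustered without the 6 genes, the cluster with the highest Arg1 still stood at 4629 and 4975 CPM in 460 and 1097 cells, 1506 of which had been in cluster 1. The lowest levels were in cluster 3, led by Tlr12 and Dnase1l3, at 564 and 1045 CPM, and in cluster 4, led by the cell cycle genes Nusap1 and Mki67, at 639 and 1249 CPM. These 2 clusters had ratios of 1.85 (1.80 to 1.91) and 1.95 (1.91 to 1.998). The difference between libraries was thus small where Arg1 was highest, and larger where it was lower.

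Between these extremes, cluster 0 (led by Ccl8, with Folr2) was at 1161 and 1908 CPM, cluster 6 (Il1r2 and MHC class II genes) at 1290 and 1506 CPM, cluster 12 (Cxcl9 and guanylate-binding proteins) at 1219 and 1719 CPM and cluster 7 (interferon-induced Ifit genes) at 1012 and 1388 CPM. Their intervals did not overlap between the libraries. All 7 clusters were higher in the library titled Blood, with ratios from 1.09 to 1.95. Cluster 11, led by Retnla and Ednrb, stayed unnamed because markers of another class were among its leading genes. It held Arg1 at 1024 and 1920 CPM.

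**Figure D3:**
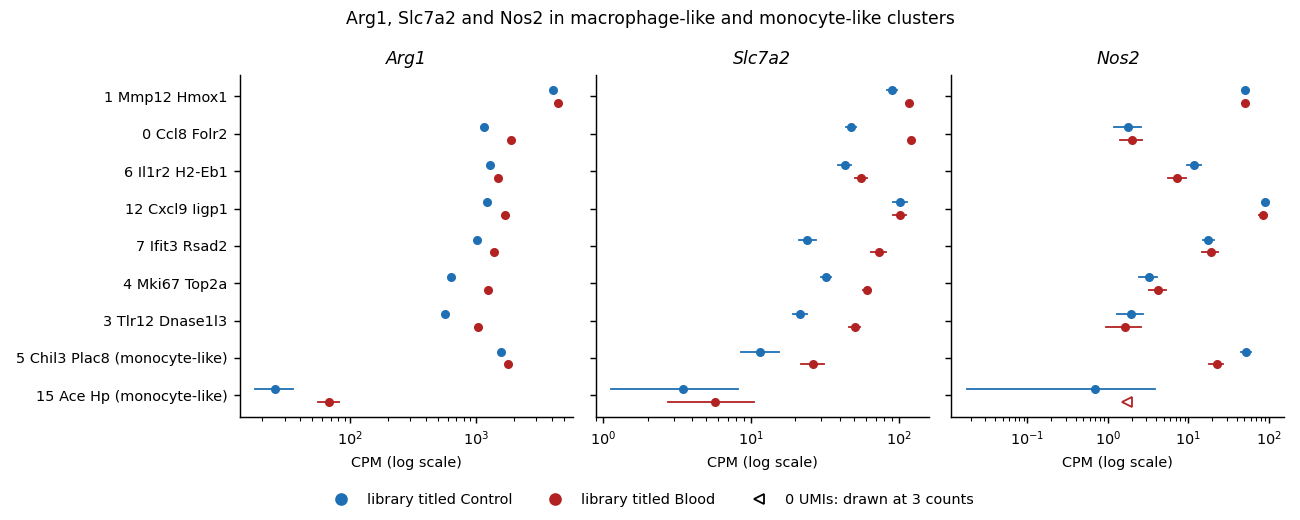
CPM (log axis) of Arg1, Slc7a2 and Nos2 in the 7 macrophage-like and 2 monocyte-like clusters, each named by its number and 2 of its genes, with exact 95% counting intervals. Arg1 is highest in cluster 1 in both libraries, Nos2 is highest in clusters 12 and 1, and the libraries differ for Slc7a2 in cluster 0 but overlap in cluster 12.

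Slc7a2 followed another order than Arg1. In the library titled Control it was highest in cluster 12 (103 CPM) and cluster 1 (90.1 CPM). In the library titled Blood, cluster 0 (122 CPM) and cluster 1 (118 CPM) stood above cluster 12 (102 CPM). The ratio was 0.991 (0.855 to 1.15) in cluster 12, 1.30 (1.197 to 1.42) in cluster 1, 2.55 (2.35 to 2.77) in cluster 0 and 3.06 (2.56 to 3.65) in cluster 7. So the Cxcl9 cluster had the same Slc7a2 level in both libraries within counting error, and the Ccl8 and Ifit clusters did not. Cluster 11 was poor in Slc7a2 (12.4 and 17.3 CPM), while its Arg1 lay within the range of the macrophage-like clusters.

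Nos2 was rare and gathered in few clusters. Over all macrophage-like cells it was at 13.8 CPM (1122 UMIs) and 17.6 CPM (1392 UMIs), a ratio of 1.27 (1.18 to 1.38). Cluster 12 stood at 91.1 and 84.8 CPM, with a ratio of 0.931 (0.794 to 1.09), and cluster 1 at 51.4 and 51.3 CPM, with a ratio of 0.998 (0.886 to 1.13). In clusters 0, 3 and 4 Nos2 lay between 1.63 and 4.21 CPM. No macrophage-like cluster had a Nos2 ratio as high as 1.5, and cluster 6 was lower in the library titled Blood (11.8 and 7.27 CPM, ratio 0.614, 0.438 to 0.856). Without cluster 1, which had 628 and 1434 cells, the ratio over macrophage-like cells was 0.931. In none of the 7 clusters did the interval of the Nos2 ratio lie above 1. These levels too depend on grouping. Clustered without the 6 genes, the macrophage-like cluster led by Iigp1 and Cxcl9 held Nos2 at 42.1 and 60.2 CPM. The unnamed cluster led by Ly6i and Cxcl9 held it at 107 and 68.1 CPM. The unnamed cluster led by Nos2 and Ccl24 held it at 397 and 135 CPM, in 50 and 111 cells.

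In the other myeloid classes Nos2 went in opposite directions. Monocyte-like cells held 39.1 Nos2 CPM (214 UMIs) and 16.4 CPM (105 UMIs), a ratio of 0.419 (0.329 to 0.532). Nearly all of it came from cluster 5, led by Dmkn, Chil3 and Ccl24, at 52.7 and 22.5 CPM. At Leiden resolution 2 the ratio was 0.664. Cluster 15, led by Hp and Ace, held 1 Nos2 UMI and none. In neutrophil-like cells Nos2 was at 19.2 CPM, from only 5 UMIs, and 75.2 CPM, from 242 UMIs, a ratio of 3.91 (1.65 to 12.1). Per 100 C1q UMIs neutrophil-like cells held 4.50 and 16.9 Nos2 UMIs, against 0.114 and 0.1604 in macrophage-like cells. In this class 20.9% of 6520 genes were at least 1.5-fold higher and 14.0% at least 1.5-fold lower, between its 129 and 1775 cells. In this class Nos2, Odc1 and Arg1 were the 3 of 4 measured members past 1.5-fold. Its Arg1 stood at 13.5 and 28.6 UMIs per 100 C1q UMIs, against 9.99 and 19.2 in macrophage-like cells and 10.2 and 23.0 in T cell-like cells. Its Arg1 ratio of 2.21, from 15 and 411 UMIs, was 4.67 with doublets kept. When the libraries were clustered separately, the ratios of Nos2, Odc1 and Arg1 were 2.22, 1.36 and 0.882. In monocyte-like cells, all 6 members were measured, Slc7a2 was the 1 past 1.5-fold upward and Nos2 the 1 downward, against 0.562% and 1.07% of 7120 genes.

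Arg2 was a gene of neutrophil-like cells in both libraries, at 293 CPM (76 UMIs) and 313 CPM (1008 UMIs). The ratio was 1.07 (0.847 to 1.37). Monocyte-like cells stood at 23.0 and 33.1 CPM and macrophage-like cells at 3.49 and 6.83 CPM. Cluster 15 held Arg2 at 19.5 and 53.5 CPM, cluster 11 at 2.41 CPM (7 UMIs) and 15.9 CPM (46 UMIs). Neutrophil RNA also differed between the libraries. S100a8 and S100a9 together were at 11.2 and 73.4 CPM in macrophage-like cells and at 6.54 and 143 CPM in cluster 11. In cells without a UMI of either gene, Arg2 stood at 3.05 and 5.82 CPM in macrophage-like cells, at 1.91 and 15.5 CPM in cluster 11 and at 18.0 and 50.5 CPM in cluster 15. The Arg2 differences were close to as large in these cells, which had no calgranulin UMI. Cells without such a UMI may still hold neutrophil RNA, and the source of these differences was not tested.

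Ass1 RNA differed little in macrophage-like cells, with 95.3 and 102 CPM and a ratio of 1.07 (1.04 to 1.10). It was higher in migratory DC-like cells (354 and 421 CPM), monocyte-like cells (243 and 259 CPM) and conventional DC-like cells (211 and 221 CPM), and low in NK cell-like cells (3.14 and 3.76 CPM). None of these class ratios reached 1.5. Within the macrophage-like clusters Ass1 ran from 33.4 and 37.6 CPM in cluster 0 to 275 and 270 CPM in cluster 12. Cluster 12 was thus high in both Nos2 and Ass1, the enzyme that makes citrulline and the one that takes it up again. Cluster 5 held Ass1 at 309 and 333 CPM. In cluster 1 Ass1 was lower in the library titled Blood (109 and 83.2 CPM, ratio 0.767, 0.703 to 0.836), and in clusters 3 and 4 it was higher, with ratios of 1.39 (1.29 to 1.51) and 1.41 (1.31 to 1.52).

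Odc1, the entry to polyamines, was highest in T cell-like cells, at 504 and 443 CPM, and not in the arginase-rich macrophages, at 136 and 129 CPM. Among the T cell-like clusters, cluster 13, led by Tnfrsf4, Foxp3 and Il2ra, stood at 1339 and 1268 CPM. Cluster 14, led by Ccl1 and Cd4, followed at 769 and 753 CPM. Cluster 8, with Cd8b1 and Cd8a, was at 232 and 193 CPM and cluster 9, with Tcf7, at 206 and 193 CPM. Odc1 was not among the 10 leading genes of any of these clusters. The intervals of the ratios in clusters 13 and 14 included 1. Cluster 13 also held Ass1 at 251 and 209 CPM, against 18.0 to 48.3 CPM in the other T cell-like clusters. In macrophage-like clusters Odc1 stayed between 93.3 and 150 CPM, in proportion a narrower range than that of any other member there.

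To compare single cells at equal depth, every macrophage-like cell with at least 5000 UMIs was thinned to 5000. This kept 4574 and 4588 cells and left out 609 and 810. An Arg1 UMI was found in 74.5% (73.2 to 75.7) and 91.0% (90.1 to 91.8) of them, with a median of 3 and 7 Arg1 UMIs per cell. A Slc7a2 UMI was found in 13.9% (12.9 to 14.9) and 27.0% (25.7 to 28.3), and a Nos2 UMI in 3.74% (3.21 to 4.33) and 4.88% (4.28 to 5.55). Odc1 was found in 40.8% and 40.6%, Ass1 in 30.4% and 30.6% and Arg2 in 1.88% and 3.81%. Unthinned, the Arg1 share was 83.9% and 93.8% at median depths of 14279 and 13510 UMIs, beside 10.3% and 13.5% in T cell-like cells at 5042 and 4807 UMIs. With all classes thinned to 1000 UMIs, it was 46.3% and 68.3% in macrophage-like cells and 1.89% and 2.90% in T cell-like cells. The source of the Arg1 UMIs in T cell-like cells was not tested.

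The cells left out matter for Nos2. Macrophage-like cells with 500 to 5000 UMIs held Nos2 at 31.1 and 80.7 CPM and those with 5000 to 10000 UMIs at 43.3 and 65.2 CPM. Cells with 20000 UMIs or more held it at 4.87 and 6.18 CPM. Arg1 in these deepest cells was at 1056 and 1727 CPM, and in the shallowest at 1196 and 3360 CPM. Nos2 was thus higher in macrophage-like cells of lower UMI count in both libraries.

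Most cells with a Nos2 UMI also had an Arg1 UMI. Of the 171 thinned cells with a Nos2 UMI in the library titled Control, 87.7% (81.8 to 92.2) also had an Arg1 UMI, against 73.9% of the cells without Nos2. In the library titled Blood the shares were 92.9% (88.7 to 95.9) of 224 cells and 90.9%. Without cluster 1 the shares were 81.9% against 71.2% titled Control and 84.3% against 88.6% titled Blood, so the direction turned in the library titled Blood. Cells with both stood at 4019 and 5160 Arg1 CPM, against 1628 and 2408 CPM in Arg1-positive cells without Nos2. The 150 and 208 cells with both came from all 7 clusters, with 36.7% and 58.7% from cluster 1 and 22.7% and 17.8% from cluster 12. Within cluster 1, where nearly every cell had Arg1, Nos2 and Arg1 coincided 1.03 and 1.005 times as often as the product of their shares. Within cluster 12 they did so 1.20 and 0.999 times as often.

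**Figure D4:**
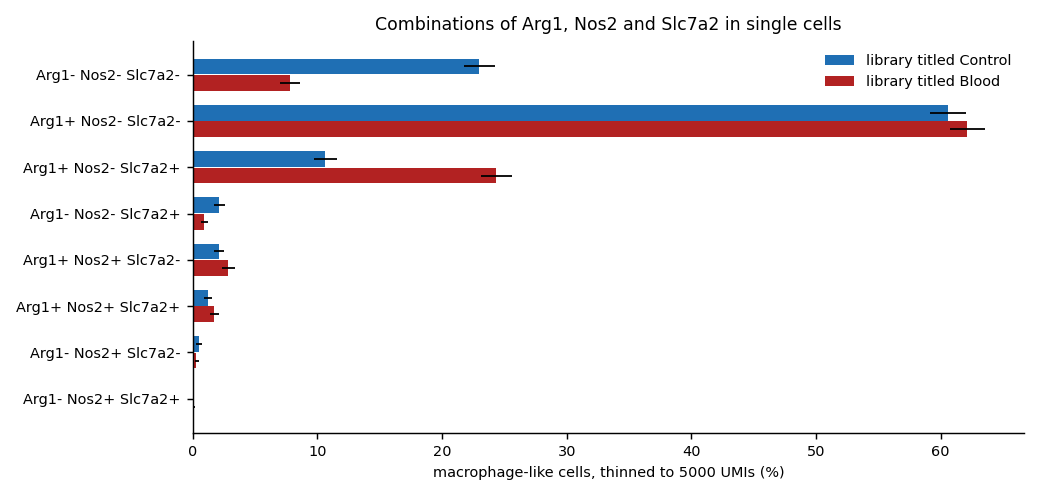
Share of macrophage-like cells, thinned to 5000 UMIs, with each combination of Arg1, Nos2 and Slc7a2 UMIs, with exact 95% binomial intervals. Cells with none of the 3 make up 23.0% and 7.78%, cells with Arg1 and Slc7a2 but no Nos2 10.6% and 24.3%, and cells with Nos2 but no Arg1 are few in both libraries.

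Cells with Nos2 but no Arg1 UMI numbered 21 and 16. They held Ass1 at 524 (395 to 682) and 625 (464 to 824) CPM, against 291 and 188 CPM in cells with both and 90.8 and 93.8 CPM in cells with Arg1 alone. Cxcl10, a chemokine induced by interferon, was at 4171 and 2525 CPM in them, against 618 and 412 CPM in cells with Arg1 alone. Smox, which oxidises spermine, was at 164 and 248 CPM in cells with both Arg1 and Nos2, against 73.2 and 76.9 CPM in cells with Arg1 alone. These groups of cells come in different proportions from the clusters, and depth below 1 expected UMI can hide either gene in a cell.

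Of the 15 pairs of members, Nos2 with Arg2 lay farthest above the product of their shares, at 5.60 times (18 cells with both) and 4.68 times (40 cells). An Arg2 UMI was found in 10.5% and 17.9% of Nos2-positive cells, against 1.54% and 3.09% of the rest. In cells without a calgranulin UMI the figures were 6.76 and 5.24 times. They were lower within the clusters that hold most Nos2-positive cells, at 2.82 and 2.97 times in cluster 1 and at 1.95 and 1.49 times in cluster 12, where 5 cells of each library had both. Without cluster 1 they were 5.37 and 3.64 times. Nos2 with Slc7a2 followed at 2.31 and 1.34 times, and Nos2 with Ass1 at 1.96 and 1.36 times. Without cluster 1, the Nos2 and Ass1 figures were 2.12 and 1.74 times, but within cluster 1 they were 1.76 and 1.17 times and within cluster 12 1.20 and 1.23 times. The Nos2 and Slc7a2 figures were 2.07 and 1.57 times without cluster 1, 1.83 and 1.08 times within it and 1.22 and 1.56 times within cluster 12. Arg1 with Ass1 was slightly below 1 in both libraries, at 0.953 and 0.946 times.

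Slc7a2 was found more often in cells with more Arg1. In the library titled Control its share was 8.22% in cells with no Arg1 UMI, 10.9% at 1 to 3 UMIs, 16.3% at 4 to 9, 21.1% at 10 to 29 and 30.9% at 30 or more. In the library titled Blood the shares were 10.4%, 20.6%, 27.6%, 32.7% and 37.0%. At each Arg1 level the share was higher in the library titled Blood, and the intervals did not overlap in the 3 middle levels. Without cluster 1 the shares at 10 to 29 Arg1 UMIs were 17.1% and 34.1%. Over all macrophage-like cells Nos2 showed no such offset across the levels. In cells with no Arg1 UMI its share was 1.80% (1.12 to 2.74) and 3.87% (2.23 to 6.22), with overlapping intervals. It was 1.85% and 1.78% at 1 to 3 Arg1 UMIs and 2.89% and 2.99% at 4 to 9. At 10 to 29 Arg1 UMIs its share was 7.33% and 5.44%, and at 30 or more 20.4% and 17.5%, with overlapping intervals. Without cluster 1 the Nos2 share at 10 to 29 Arg1 UMIs was lower in the library titled Blood, at 6.86% (4.88 to 9.34) and 3.08% (2.07 to 4.39). At the other Arg1 levels the Nos2 intervals without cluster 1 overlapped. Ass1 was found most often in cells with no Arg1 UMI, at 34.6% and 47.2%, and Odc1 stayed between 38.2% and 43.6% at all levels. In the library titled Control the Ass1 share at 30 or more Arg1 UMIs was close, at 33.0% (26.4 to 40.1). Without cluster 1 the Ass1 shares at 30 or more were 44.9% (22 of 49 cells) and 39.4%, against 34.5% and 47.3% with no Arg1 UMI.

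**Figure D5:**
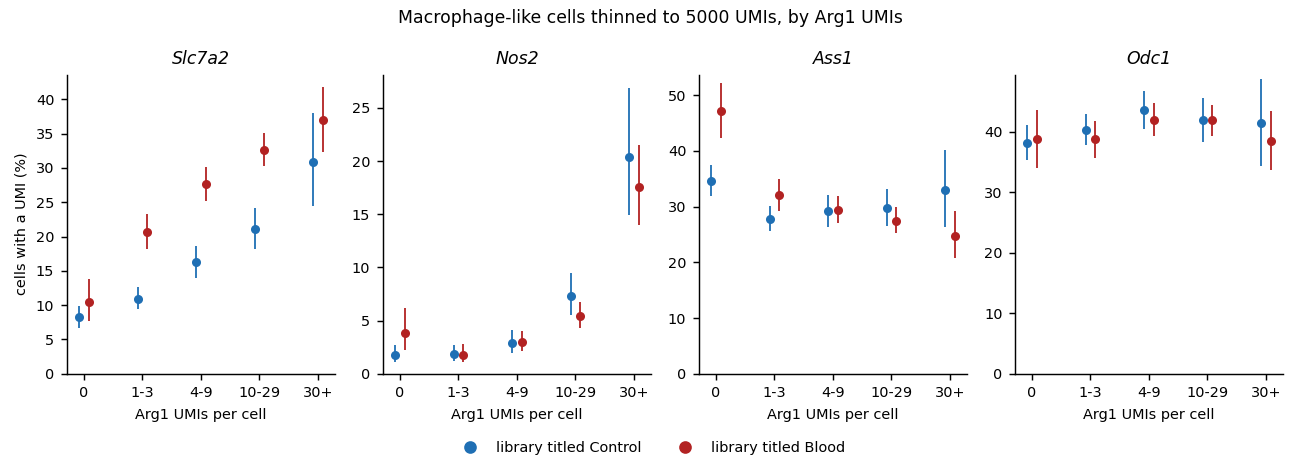
Share of macrophage-like cells, thinned to 5000 UMIs, with a UMI of Slc7a2, Nos2, Ass1 or Odc1 (vertical axis, %) by the number of Arg1 UMIs in the cell, with exact 95% binomial intervals. The Slc7a2 share goes from 8.22% to 30.9% and from 10.4% to 37.0%, Nos2 reaches 20.4% and 17.5% at 30 or more Arg1 UMIs, and Odc1 is flat.

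Genes around the members in the pathway were much alike in the 2 libraries in macrophage-like cells. Of 23 listed genes of arginine uptake and use, 11 were measured and 2 (Arg1 and Slc7a2) passed that fold upward, and the list's median log2 ratio was 0.13. Gatm, which uses arginine for creatine synthesis, was at 405 and 514 CPM. None of 15 measured polyamine genes, 4 genes of proline synthesis from ornithine or 4 genes of tetrahydrobiopterin, the cofactor of NOS2, passed 1.5-fold in either direction. Of all 7778 genes measured in this class, 0.476% passed upward and 0.849% downward. For lists of this size, none passing is near that share and says nothing particular about these pathways. Their median log2 ratios were 0.01, -0.12 and -0.04. Azin1, which frees ODC1 from its antizyme, was at 74.8 and 84.1 CPM, Oat, which leads ornithine to proline, at 57.8 and 50.3 CPM, and Gch1, the first enzyme of tetrahydrobiopterin synthesis, at 44.6 and 43.1 CPM. Odc1, which like Oat acts on ornithine, was at 136 and 129 CPM. Neither Odc1 nor Oat was higher in the library titled Blood.

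Signal genes known for the induction of Arg1 and Nos2 gave 0 of 19 measured past 1.5-fold, with a median log2 ratio of 0.01. Over all genes measured in this class 0.476% passed upward and 0.849% downward, so a count of 0 here is near that share. Jak2 was at 34.9 and 47.2 CPM, and Il4ra, the receptor chain shared by IL-4 and IL-13, at 187 and 215 CPM. Of 7 measured genes of alternative activation, only Ccl24, an eosinophil-attracting chemokine, passed 1.5-fold, at 67.5 and 142 CPM. The median log2 ratio of that list was 0.08, against 0.01 over all genes measured in this class. The mannose receptor Mrc1 stood at 481 and 645 CPM. None of 7 measured genes of classical activation passed, and their median log2 ratio was -0.23. Cxcl10 stood at 619 and 451 CPM and the Fc receptor Fcgr1 at 396 and 312 CPM.

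Over 44 points, 1 for each of 22 clusters in each library, the genes whose log2 level was most like that of Arg1 among 6263 genes were C3ar1 (Pearson r = 0.94), Lgmn (0.93), Slc7a8 (0.92), Msr1 (0.92) and Ms4a7 (0.92). For Slc7a2 they were Mmp13 (0.93), C1qa (0.90), C1qb (0.90), Itga9 (0.90) and Ms4a7 (0.90). For Nos2 they were Fpr2 (0.79), Il1a (0.77), Acod1 (0.75), Slc2a1 (0.74) and Prdx5 (0.74). Points of 1 library share its depth and free RNA, and these correlations over clusters are descriptions. Arg1 and Slc7a2 had r = 0.88 with each other, and Nos2 had 0.56 with Arg1 and 0.54 with Slc7a2. Over the 14 points of the 7 macrophage-like clusters, Arg1 and Slc7a2 had r = 0.77. Nos2 had 0.57 with Arg1 and 0.55 with Slc7a2 over these points. Among the members, both Arg1 (0.82) and Nos2 (0.92) were there most like Arg2.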

How the data were processed

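The authors deposited raw UMI counts for every gene in every barcode. The submitters' processing notes name Cell Ranger 3.1.0 and mm10. How barcodes were called, which annotation was used and whether animals were pooled is unstated in the labels. A cell was kept if it had 300 genes and 500 UMIs or more and a mitochondrial share of 20% or less. Scrublet called 1.88% and 2.37% of the cells titled Control and titled Blood doublets, against 7.58% and 9.65% expected from their numbers, and these were removed, so some doublets may remain. Cells of both libraries were clustered together with scanpy 1.11.5 and leidenalg 0.10.2 (2000 variable genes, 30 components, 15 neighbours, resolution 1) without batch correction. A cluster was named from its score over marker lists when at least 3 markers were found in 5% of its cells and its 10 leading genes held no more markers of another class. The limits of this rule were set after seeing the data. The members, the pathway lists and the markers were chosen with earlier results of these data known.

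Counts were summed per class and library and divided by the total UMIs of those cells (CPM). Log2 ratios used CPM plus 5, and a gene was measured if it had 10 counts in all and reached 10 CPM in one of the libraries. Intervals are exact Poisson for levels, exact conditional binomial for ratios and Clopper-Pearson for shares. Named pathway genes were up to 3 of each list with the largest absolute log2 ratio (1 of them is not reported here), and genes most like Arg1, Nos2 and Slc7a2 were the 5 with the highest Pearson r over clusters with at least 50 cells in each library, among genes reaching 50 CPM. The scripts were tested on simulated data. Scaling by TMM factors used edgeR 4.0.16. Gene coordinates came from GENCODE M21, where 30934 of the 31053 gene identifiers were found. No nucleotide or protein sequences were used.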

Additional observations from a re-analysis of the deposited data

Results flagged for a closer look

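Nos2 stood on opposite sides of 1 in 2 myeloid classes. Its ratio of the library titled Blood to the library titled Control was 0.419 in monocyte-like cells, 3.91 in neutrophil-like cells and 1.27 in macrophage-like cells. With 1 library per group the difference between the classes was not tested, and the neutrophil-like value titled Control rests on 5 UMIs.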

How the results depend on the processing

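In macrophage-like cells Arg1 and Slc7a2 were higher in the library titled Blood under all 14 alternatives run for each, with ratios of 1.33 to 1.94 and 1.61 to 2.41. Nos2 lay between 0.931 and 1.63 and changed sides of 1. Averaging CPM over cells gave ratios of 1.94 for Arg1 and 1.63 for Nos2. With clusters at equal weight they were 1.33 for Arg1, 1.61 for Slc7a2 and 0.951 for Nos2. Clustering the libraries separately gave 1.501, 1.97 and 1.09, at Leiden resolution 2 they were 1.82, 2.41 and 1.17, with doublets kept 1.80, 2.34 and 0.986, and with a filter of 1000 UMIs and 10% mitochondrial UMIs 1.71, 2.30 and 0.987. Thinned to 5000 UMIs, Arg1 was at 1.79. Without cluster 1 they were 1.69, 2.21 and 0.931, and in cells without S100a8 or S100a9 UMIs Arg1 was at 1.85; these and the alternatives on shared barcodes, cluster 11 and clustering without the members were added after seeing the data. The cause of these shifts was not tested. In neutrophil-like cells, from 15 and 411 UMIs, the Arg1 ratio of 2.21 turned to 0.882 when the libraries were clustered separately. The count of 2 genes of arginine uptake and use past 1.5-fold was the same with no filter on low counts and with a pseudocount of 1. Among Nos2-positive cells the share with Arg1 lay between 82.9% and 88.7% titled Control and 92.6% and 94.7% titled Blood, thinned to 2000 UMIs or with at least 2 UMIs required. The share of macrophage-like cells with an Arg1 UMI fell to 58.6% and 80.3% when thinned to 2000 UMIs. No paired analysis was possible because each group has 1 library. Depth limits statements on Nos2 and Arg2 in single cells and on classes under 100 cells.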

Other observations

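Cluster 11 stayed unnamed and is led by Retnla and Ednrb. It held Arg1 at 1024 and 1920 CPM in the libraries titled Control and titled Blood, within the range of the macrophage-like clusters. Its Ass1 was at 20.6 and 13.9 CPM, below every macrophage-like cluster. Its Nos2 was at 1.38 CPM (4 UMIs) and 5.20 CPM (15 UMIs).

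Cluster 5, which is monocyte-like and led by Dmkn, Chil3 and Ccl24, held Arg1 (1571 and 1813 CPM), Ass1 (309 and 333 CPM) and Arg2 (24.2 and 25.5 CPM) together, with little Slc7a2 (11.6 and 26.3 CPM).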
